A study of Mus musculus with 12 samples.

Results

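Slc14a1 and Aqp9 encode membrane channels for small uncharged solutes, and their transcripts are described here in 2 mouse cell lines exposed to rebastinib. They are 2 of the 55421 genes counted. Both were chosen because their response to rebastinib in these libraries depended strongly on the line. Their responses, the difference between the lines and their control levels are therefore descriptions, with standard errors or counting intervals and no test. The other aquaporin genes, 11 in number, the second urea transporter and 5 lists of related metabolic genes serve as context and carry adjusted p-values.

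Messenger RNA was sequenced from ID8, a cancer line derived from mouse ovarian surface epithelium, and from PMJ2R, a macrophage line from the mouse peritoneum. The drug, rebastinib, blocks kinases and above all TIE2, a receptor for angiopoietins. There were 4 groups of 3 libraries each. ID8 cells are labelled C57BL6J wildtype and female, and PMJ2R cells are labelled C57BL6J and female and carry the v-raf and v-myc oncogenes in both of their groups. In each line a control group was compared with a group given 5 nM rebastinib for 6 h, and what the control cells received is not stated. Each is a single established line, so the comparison is between 1 tumour model and 1 macrophage model. Whether replicates came from separate cultures is not labelled, so the p-values weigh differences against a spread between libraries that may be purely technical.

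The line labels were checked against markers. In PMJ2R, 11 of 12 macrophage markers reached 1 CPM (counts scaled by library size) in control and with rebastinib, and their summed level was 2699 to 2791 and 3025 to 3093 CPM. In ID8 it was 16.9 to 18.4 and 28.8 to 32.3 CPM, with 3 of 12 at 1 CPM and Adgre1, Spi1, Lyz2, Itgam, Laptm5 and Tyrobp at 0. The 3 were Csf1r, Cd68 and Cd14, with 528, 281 and 351 counts in control ID8 and 717, 314 and 950 with rebastinib. Ovarian epithelial and mesothelial markers summed to 4357 to 4605 CPM in control ID8 and to 2991 to 3131 with rebastinib, where 12 and 9 of 12 reached 1 CPM, and to at most 1.16 CPM in PMJ2R. Libraries held 19025504 to 27070556 counts. Genes overlapping ribosomal RNA took 0.106% to 0.355% of counts in control ID8, 1.05% to 1.60% in ID8 with rebastinib, 0.0927% to 0.172% in control PMJ2R and 5.63% to 5.99% in PMJ2R with rebastinib. Mitochondrially encoded genes took 2.92% to 3.14%, 4.74% to 5.12%, 3.50% to 4.25% and 5.51% to 5.88% in the same order. These shares separate the same libraries as every rebastinib comparison here, and their part in the results was not tested.

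Slc14a1 encodes urea transporter UT-B, which lets urea cross the plasma membrane down its gradient and is best known from red blood cells and from the small vessels of the kidney medulla. Aqp9 encodes an aquaglyceroporin, a channel that passes water, glycerol, urea and other small solutes, and it is best known as the glycerol entry route of hepatocytes and as an aquaporin of leukocytes. Aquaporins that pass only water, such as Aqp1, Aqp2, Aqp4 and Aqp5, form a separate branch of the same family, Aqp3 and Aqp7 are further glycerol channels, and Aqp11 is an aquaporin of the endoplasmic reticulum membrane. Slc14a2, the other mammalian urea transporter gene, is expressed in kidney tubules. All levels below are CPM scaled with the trimmed mean of M-values (TMM), unless they are given per kilobase of exon.

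Slc14a1 (ENSMUSG00000059336; GRCm38, chromosome 18, 78100091 to 78142119, minus strand) was low in control ID8 cells and high in ID8 cells given rebastinib, whereas PMJ2R showed the opposite order. In control ID8 it was counted 28, 20 and 31 times, or 1.06, 0.755 and 1.13 CPM. With rebastinib the ID8 libraries held 1434, 1141 and 1640 counts, or 79.4, 68.5 and 71.7 CPM. All 3 rebastinib libraries therefore lay far above all 3 control libraries. The mean level was 0.982 ± 0.200 CPM in control and 73.2 ± 5.61 CPM with rebastinib (SD, n = 3). The fitted difference was 6.21 on the log2 scale (SE 0.133), a fold of 74.2. It ranked 20th from the highest among 14829 genes tested in ID8. In a bulk library, fewer cells of a kind and less RNA per cell cannot be told apart, so each level is an average over the culture.

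In PMJ2R, Slc14a1 was counted 121, 134 and 131 times in control cells, or 4.40, 4.24 and 4.59 CPM. With rebastinib the counts were 3, 11 and 9, or 0.190, 0.660 and 0.572 CPM. The groups did not overlap, and the lowest rebastinib library, replicate 1, held only 3 counts. The mean level was 4.41 ± 0.174 CPM in control and 0.474 ± 0.250 CPM with rebastinib (SD, n = 3). The fitted difference was -3.13 on the log2 scale (SE 0.261), which is 8.76-fold lower with rebastinib and ranked 429 from the lowest among 14010 genes tested in PMJ2R. The ratio of summed counts, 23 to 386, was 0.0769 after division by library totals in place of TMM scaling, with an exact 95% interval of 0.0482 to 0.117 that covers counting error only.

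Separation of this kind was common in these data. Rebastinib and control libraries did not overlap for 82.2% of the genes tested in ID8 and for 84.4% in PMJ2R. Of the tested genes, 80.4% passed edgeR's quasi-likelihood test at an adjusted p under 0.05 in ID8, 38.4% higher and 42.0% lower with rebastinib, and 83.7% passed in PMJ2R, 40.1% higher and 43.6% lower. With library totals as the only scaling the split moved to 3540 higher and 8475 lower in ID8, from 5687 and 6230, and to 3104 and 8677 in PMJ2R, from 5623 and 6107. Because Slc14a1 was chosen by its size and direction in each line, its rank and its separation are descriptions against this background.

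**Figure D1:**
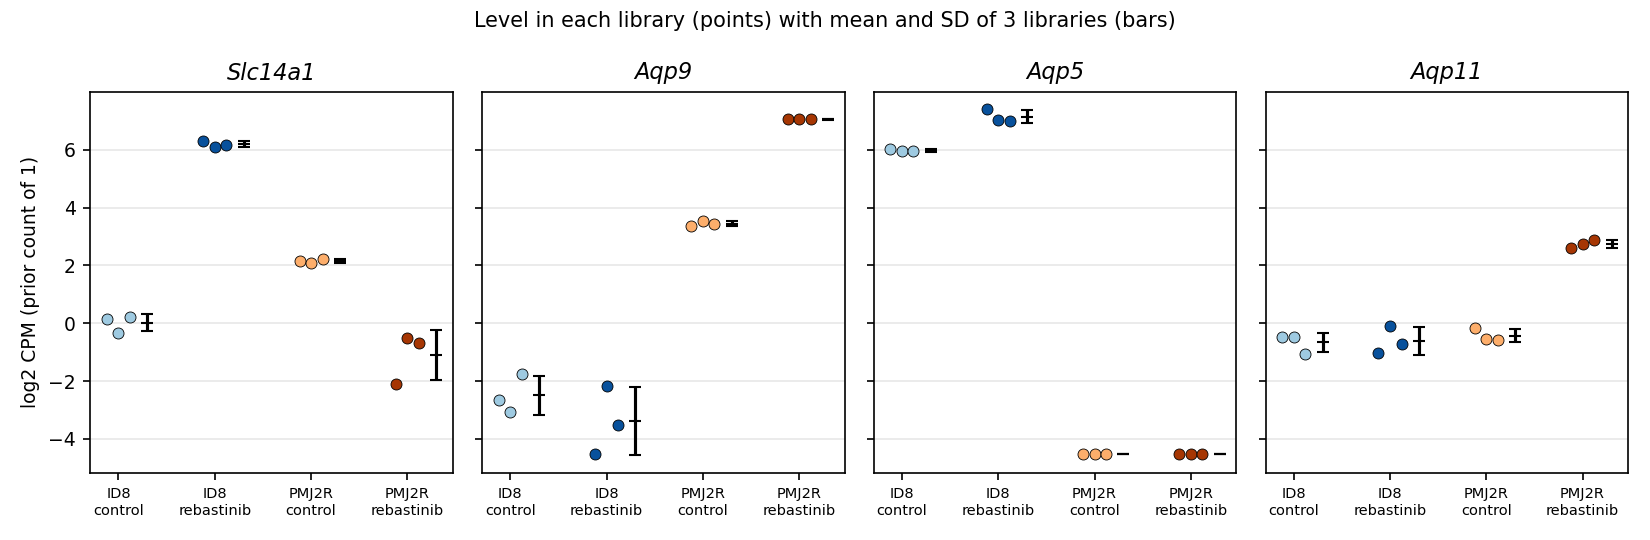
Level of Slc14a1, Aqp9, Aqp5 and Aqp11 in each of the 12 libraries (points) as log2 CPM with a prior count of 1, with the mean and SD of the 3 libraries of a group (bars). Slc14a1 is highest in ID8 with rebastinib and lowest in PMJ2R with rebastinib, Aqp9 and Aqp11 are highest in PMJ2R with rebastinib, and Aqp5 has 0 counts in PMJ2R, where its points show the prior count alone.

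Control cells of the lines also differed in Slc14a1. Control PMJ2R was 4.14-fold higher than control ID8, 2.05 on the log2 scale (SE 0.183). Of 15924 genes tested in that comparison 82.3% passed, 39.4% higher and 42.9% lower in PMJ2R. The order of the group means from low to high was PMJ2R with rebastinib, control ID8, control PMJ2R and ID8 with rebastinib. The closest pair in that order lay near each other, at most 0.660 CPM in PMJ2R with rebastinib and at least 0.755 CPM in control ID8. Thus the line with the higher control level became the line with the lower level after rebastinib.

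The response of Slc14a1 in PMJ2R minus that in ID8 was -9.40 on the log2 scale (SE 0.257), the third lowest of 16566 genes tested, of which 52.4% passed, 21.8% with a higher and 30.6% with a lower response in PMJ2R. Leaving out each library in turn gave -9.73 to -9.04. Among the 12398 genes tested in both lines, 8681 passed in both, and 692 of these were higher in ID8 and lower in PMJ2R with rebastinib, while 537 had the reverse order, together 14.2%. Opposite directions were scarcer among large changes. Of 2733 genes that changed at least 2-fold in both lines, 37 were higher in ID8 and lower in PMJ2R and 53 the reverse (3.29%), and of 659 that changed at least 4-fold, 6 and 1 (1.06%). Slc14a1 is included in these counts and was chosen for its line-dependent response, so they cannot show that it was unusual. At 8-fold or more in both lines 179 genes passed, and 2 of them (1.12%) moved in opposite directions, Slc14a1 and Ahrr. Slc14a1 stood just inside this limit in PMJ2R, at 8.76-fold, and fell outside it without PMJ2R rebastinib replicate 1 (-2.76 on the log2 scale) and with trends on transcript length and GC content removed (-2.86). Ahrr, named after its values were seen, encodes the repressor of the aryl hydrocarbon receptor and stood at 3.96 in ID8 and -5.00 in PMJ2R on the log2 scale.

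**Figure D2:**
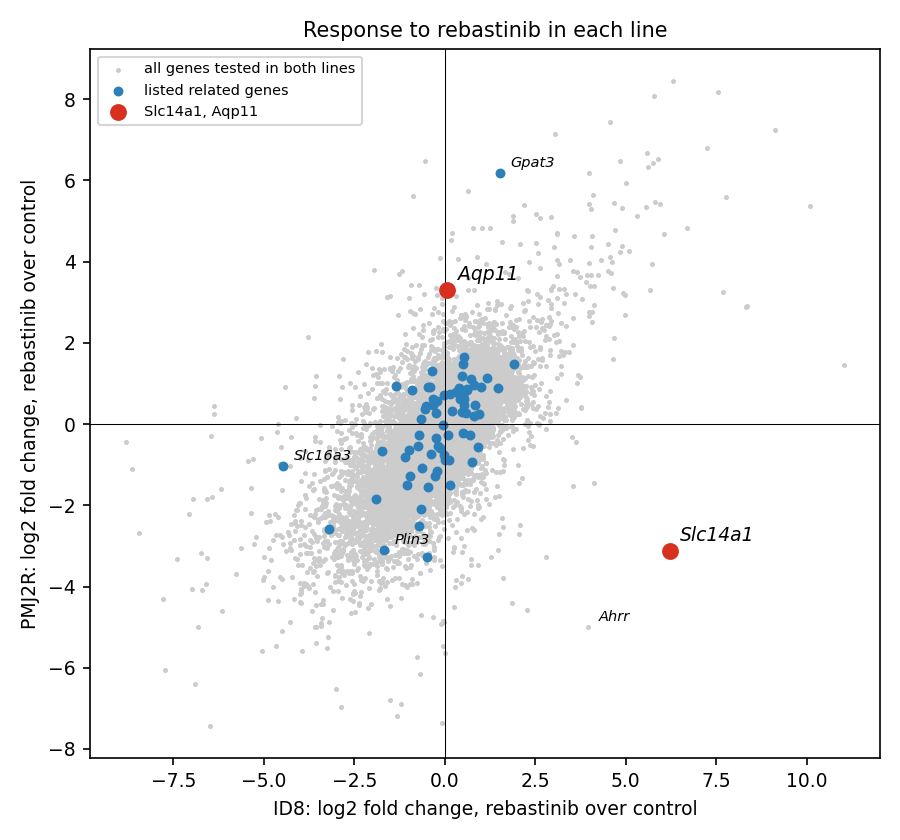
Log2 fold change of rebastinib over control in ID8 (horizontal axis) and in PMJ2R (vertical axis) for the 12398 genes tested in both lines (grey), the listed related genes (blue) and Slc14a1 and Aqp11 (red). Slc14a1 lies at the lower right at 6.21 and -3.13, with Ahrr near it, Aqp11 near 0 on the ID8 axis at 3.30 on the PMJ2R axis, and Aqp9 is not drawn because its counts in ID8 were too low to be tested.

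Aqp9 (ENSMUSG00000032204; GRCm38, chromosome 9, 71110659 to 71168682, minus strand) was found almost only in PMJ2R, and was higher there with rebastinib. Control PMJ2R libraries held 279, 365 and 309 counts, or 10.2, 11.5 and 10.8 CPM. Rebastinib PMJ2R libraries held 2109, 2202 and 2082 counts, or 134, 132 and 132 CPM. The rebastinib libraries lay close together and all above the controls. The mean level was 10.8 ± 0.699 CPM in control and 133 ± 0.952 CPM with rebastinib (SD, n = 3). The fitted difference was 3.67 on the log2 scale (SE 0.0624), a fold of 12.8, and ranked 175 from the highest among the 14010 genes tested in PMJ2R.

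In ID8, Aqp9 was counted 3, 2 and 7 times in control and 0, 3 and 1 times with rebastinib. These are 0.114, 0.0755 and 0.255 CPM against 0.00, 0.180 and 0.0437 CPM. The groups overlapped, and the filter on low counts removed the gene from the ID8 test. The ratio of the summed counts over library totals, 4 with rebastinib to 12 in control, was 0.346 with an exact 95% interval of 0.0814 to 1.14. That interval covers counting error only, and so few counts allow no statement about a difference. The Aqp9 means in ID8, 0.148 and 0.0746 TMM-scaled CPM, thus rest on 12 and 4 counts.

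The control lines differed strongly in Aqp9. Control PMJ2R stood 6.03 above control ID8 on the log2 scale (SE 0.231). The ratio of summed counts over library totals, 953 to 12, was 71.4, with an exact 95% interval of 40.7 to 139 that covers counting error only. The order of the means from low to high was ID8 with rebastinib, control ID8, control PMJ2R and PMJ2R with rebastinib, and the ID8 groups overlapped. The response in PMJ2R minus that in ID8 was 4.66 on the log2 scale (SE 0.754), 269th from the highest of 16566. That value rests on 16 counts in the ID8 libraries and ran from 4.02 to 5.98 when each library was left out in turn.

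Both genes lie on the minus strand of GRCm38, and no exon of either shares a base with an exon of another annotated gene. Aqp9 spans the antisense gene Gm32511 and the processed pseudogene Gm47268, with 0 shared exonic bases. The stretches of DNA just upstream of RefSeq start sites of Aqp9 and Aqp11 are shown because these were the aquaporins with enough counts to be fitted in PMJ2R, and both were higher there with rebastinib. They are from RefSeq with build GRCm38.p6, minus strand, without bases in an annotated exon of the gene, and capitals mark matches to a searched motif. The Aqp9 stretches at chr9:71163290-71163411 and chr9:71162634-71162883 both lie within the GENCODE span of the gene, and the Aqp11 stretch is chr7:97738290-97738497.
Aqp9 upstream 1: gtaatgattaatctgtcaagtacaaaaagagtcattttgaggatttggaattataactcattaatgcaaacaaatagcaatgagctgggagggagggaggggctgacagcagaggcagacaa
Aqp9 upstream 2: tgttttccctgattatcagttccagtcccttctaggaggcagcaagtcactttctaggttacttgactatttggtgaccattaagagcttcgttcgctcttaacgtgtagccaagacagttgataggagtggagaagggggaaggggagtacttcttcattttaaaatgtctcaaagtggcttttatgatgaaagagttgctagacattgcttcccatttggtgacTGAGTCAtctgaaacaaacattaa
Aqp11 upstream: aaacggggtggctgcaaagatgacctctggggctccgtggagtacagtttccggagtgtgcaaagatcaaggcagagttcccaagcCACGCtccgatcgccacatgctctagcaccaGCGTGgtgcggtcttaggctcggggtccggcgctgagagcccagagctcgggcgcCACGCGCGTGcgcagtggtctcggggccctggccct
The motifs, searched on both strands, were AP-1 (TGANTCA), the core of the aryl hydrocarbon receptor element (GCGTG), the antioxidant response element (TGACNNNGC) and the FOXO element (GTAAACA). The first Aqp9 stretch, of 122 bases, held no match. The second Aqp9 stretch, of 250 bases, held 1 match to AP-1, which 6.75% of 32851 RefSeq windows of that length and place hold. The Aqp11 stretch, of 208 bases, held 4 matches to the receptor core and none to the other motifs. Of all windows, 23.6% hold that short core at least once, and the last pair of matches lies side by side. A match describes letters in the window and is not evidence of binding.

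Per kilobase of exon, which allows a rough comparison of genes, Slc14a1 in ID8 with rebastinib stood at 19.9, 17.1 and 17.9 CPM per kb. Aqp9 in PMJ2R with rebastinib stood at 32.3, 31.9 and 31.9 CPM per kb. The length used joins all annotated exons of a gene, 3995 bp for Slc14a1 and 4143 bp for Aqp9. Their longest transcripts have 3665 and 2765 bp, so these levels depend on which transcripts are annotated. The highest group of Aqp9 thus lay above the highest group of Slc14a1 without overlap. In control cells the order of the members differed by line. Control PMJ2R had 2.62 CPM per kb of Aqp9 and 1.10 of Slc14a1, while control ID8 had 0.0357 of Aqp9 and 0.246 of Slc14a1. With rebastinib each line was left with a high level of 1 member and a low level of the other, 18.3 CPM per kb of Slc14a1 beside 0.0180 of Aqp9 in ID8, and 32.1 of Aqp9 beside 0.119 of Slc14a1 in PMJ2R.

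The other urea transporter, Slc14a2, whose locus begins 4029 bp from Slc14a1, had 1 count in all 12 libraries, in ID8 with rebastinib. Nearly all SLC14 counts in these cells were therefore from Slc14a1. Among the other 11 aquaporins, 2 were tested in ID8 and 1 in PMJ2R. Aqp5, a water channel of secretory epithelia, rose in ID8 from 65.9, 61.7 and 61.9 CPM to 168, 129 and 129 CPM. The change was 1.18 on the log2 scale (SE 0.0970, adjusted p = 4.81e-08), far smaller than the 6.21 of Slc14a1 in the same libraries. Aqp5 had no count in any PMJ2R library and was at least 1881-fold higher in ID8 in control and at least 2431-fold higher with rebastinib, taking 3 counts over the PMJ2R group as the bound. At 24.3 CPM per kb in control ID8 and 54.8 with rebastinib, Aqp5 lay above Slc14a1 in both.

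Aqp11 had the PMJ2R pattern of Aqp9 at a lower level. It was 0.837, 0.633 and 0.630 CPM in control PMJ2R and rose to 5.97, 6.60 and 7.25 CPM with rebastinib. The change was 3.30 on the log2 scale (SE 0.189, adjusted p = 1.41e-11), beside 3.67 for Aqp9. In ID8 it was 0.600 ± 0.141 CPM in control and 0.637 ± 0.236 CPM with rebastinib (SD, n = 3), a value of 0.07 (SE 0.366, adjusted p = 0.859) that did not pass. The response differed between lines by 3.17 on the log2 scale (SE 0.410, adjusted p = 6.49e-07). Control levels did not pass a test of their difference (0.11 on the log2 scale, adjusted p = 0.744), unlike the control levels of Aqp9, which lay far apart. Per kilobase, Aqp11 in PMJ2R with rebastinib was 0.701 CPM per kb over 9418 bp of annotated exon, against 32.1 over 4143 bp for Aqp9.

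The glycerol channels related to Aqp9 were scarcely counted. Aqp3 had 3 counts in control ID8 and 12 with rebastinib, a ratio over library totals of 4.15 with an exact 95% interval of 1.12 to 22.9. In PMJ2R it had 2 and 13 counts, a ratio over library totals of 8.39 with an interval of 1.90 to 76.6, and the 13 came from 2 libraries, with 8, 0 and 5 counts. Aqp7 had 23 counts over all libraries. Aqp9 was thus the only aquaglyceroporin of these 3 above 1 CPM in any group. Of the remaining channels, Aqp8 had 53 counts and Mip 48 over all libraries, Aqp4 had 7, all in PMJ2R with rebastinib, Aqp1 had 7 and Aqp2 had 5, both in ID8 alone, and Aqp6 and Aqp12 had 0.

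**Figure D3:**
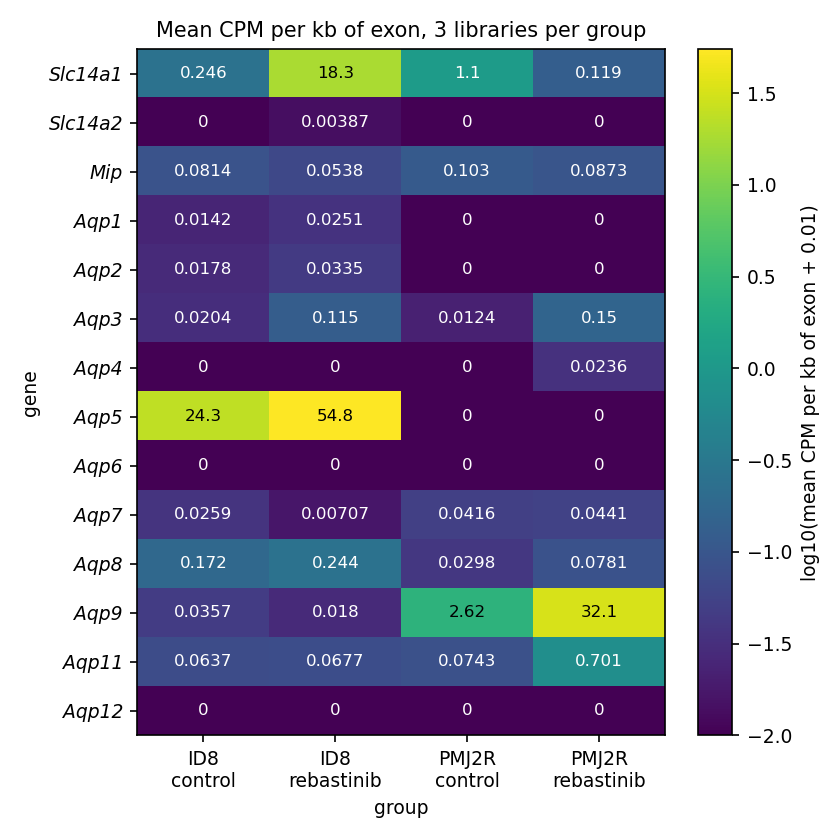
Mean level of Slc14a1, Slc14a2 and 12 aquaporin genes in each group of 3 libraries, as CPM per kb of exon (numbers), coloured on a log10 scale. ID8 columns are dominated by Aqp5, joined by Slc14a1 with rebastinib (18.3), and PMJ2R columns by Aqp9 (2.62 in control and 32.1 with rebastinib).

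Cell types known for these channels were checked through their markers, in CPM by library totals as in the check of the line labels. Slc14a1 is known from red blood cells, and the summed level of 10 red blood cell markers was 0.721 to 1.18 CPM in control ID8 and 0.848 to 1.60 CPM with rebastinib, with the globins Hba-a1, Hba-a2, Hbb-bs and Hbb-bt at 0 in both. Slc14a1 was at 68.5 TMM-scaled CPM or more in each of those rebastinib libraries, and the part of red blood cells in that level was not tested. In PMJ2R the sum was 1.42 to 2.03 CPM in control and 1.25 to 1.37 CPM with rebastinib. For Aqp9, the hepatocyte markers Ttr, Serpina1a, Fgb and Hnf4a were at 0 in every group, and the sum of 10 such markers in PMJ2R was 21.0 to 23.7 CPM in control and 21.3 to 23.1 CPM with rebastinib. The same sum in ID8 was 1661 to 1714 CPM in control and 718 to 771 CPM with rebastinib. It came almost wholly from the transferrin gene Trf, the 1 of the 10 markers that reached 1 CPM there. The PMJ2R sum also came mainly from Trf, with 1556 counts in control and 1217 with rebastinib, and Apoa2 was next with 146 and 90. Neutrophil markers in PMJ2R summed to 19.4 to 22.1 CPM in control and 1.05 to 1.48 CPM with rebastinib, a sum carried in control mainly by Cxcr2, which had 1450 counts there and 32 with rebastinib, and S100a9, Ly6g and Ngp were at 0. The part of this shift, or of hepatocytes, in the Aqp9 values was not tested. Endothelial markers summed to 5.26 to 6.34 and 4.76 to 5.57 CPM in PMJ2R and to at most 1.08 CPM in ID8, and lymphocyte markers to at most 0.841 CPM anywhere.

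The nearest protein-coding genes on either side of each member give the setting of its locus. Next to Slc14a1, Siglec15 had a mean of at most 0.0705 CPM in any group and Gm6133 of at most 0.585 CPM. Epg5, an autophagy gene, fell from 28.4 to 12.1 CPM in ID8 (-1.22 on the log2 scale, adjusted p = 3.04e-07) and from 33.0 to 13.7 CPM in PMJ2R (-1.21, adjusted p = 7.25e-11). Its responses in the lines differed by -0.06 (SE 0.147, adjusted p = 0.810), beside -9.40 for Slc14a1. Next to Aqp9, Lipc was at most 0.285 CPM on average. Adam10, a membrane protease, rose in ID8 (0.53, adjusted p = 7.27e-06; 0.10 and adjusted p = 0.281 with library totals only) and fell in PMJ2R (-0.41, adjusted p = 5.04e-07), the opposite of the direction of Aqp9 there. Polr2m rose in PMJ2R from 194 to 293 CPM (0.66, adjusted p = 3.86e-10; 0.10 and adjusted p = 0.0536 with library totals only) and was at 163 and 168 CPM in ID8 (0.05, adjusted p = 0.486). Aldh1a2, a retinoic acid synthesis gene, fell in ID8 from 1.86 to 0.134 CPM (-3.69, adjusted p = 4.60e-07) and was at most 0.0624 CPM in PMJ2R.

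Genes were ranked by how closely their level over the 4 groups followed that of each member, among 11537 protein-coding genes averaging 1 CPM or more. The measure was the root mean square difference of centred group means on the log2 scale, so a smaller value is a closer likeness. The nearest to Slc14a1 were Cyp1a1 (1.36), a xenobiotic-metabolising enzyme and textbook target of the aryl hydrocarbon receptor, Fhdc1 (1.57), a formin-type protein, Efna1 (1.64), an ephrin ligand, Tsku (1.67), a secreted leucine-rich protein, and Gsta1 (1.70), a glutathione transferase. Even the closest lay further from Slc14a1 than any of the 5 nearest genes lay from Aqp9. Cyp1a1 had 276, 223 and 285 counts in ID8 with rebastinib and at most 1 count in any other library, and so lacked the PMJ2R control level of Slc14a1. Gsta1 likewise had 0 counts in PMJ2R, and reads of its close paralogs may be shared with it. Fhdc1, Efna1 and Tsku shared the opposite directions, higher in ID8 and lower in PMJ2R with rebastinib. Such sharing is favoured by a choice on likeness to Slc14a1 and is not a separate result. Fhdc1 went from 9.14 to 38.1 CPM in ID8 and from 3.57 to 0.599 CPM in PMJ2R. Efna1 went from 1.82 to 5.52 and from 1.85 to 0.125 CPM, and Tsku from 8.71 to 24.7 and from 7.57 to 1.10 CPM. Their ID8 differences of 2.07, 1.60 and 1.51 on the log2 scale were well below the 6.21 of Slc14a1.

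The genes nearest to Aqp9 followed it more closely. They were Pid1 (0.67), an adaptor protein, the chemokine Ccl3 (0.71), the cytokine Osm (0.74), the orphan receptor Gpr141 (0.81) and the scavenger receptor Msr1 (0.83). All 5 were higher in PMJ2R with rebastinib than in control, as Aqp9 was, which their choice by likeness to its profile made likely. Pid1 went from 9.17, 8.64 and 9.25 CPM to 88.1, 88.8 and 89.7 CPM, which is 3.36 on the log2 scale beside 3.67 for Aqp9, and Gpr141 from 11.9, 11.1 and 9.95 CPM to 116, 103 and 121 CPM, which is 3.43. Ccl3, Osm and Msr1 had smaller differences of 1.93, 2.32 and 1.52. Pid1 and Osm had 0 counts in ID8 and Ccl3 and Msr1 had 1, so their likeness to Aqp9 depends in part on the prior count that stands in for their ID8 level.

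**Figure D4:**
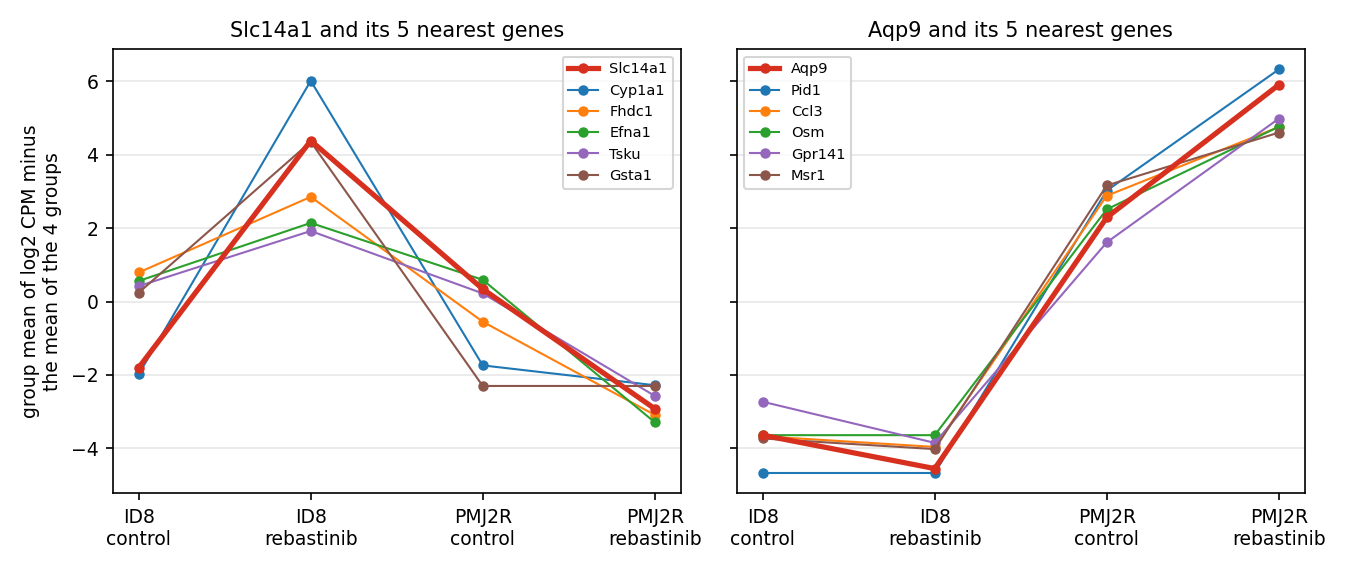
Group means of log2 CPM minus the mean of the 4 groups for each member (thick red) and for the 5 protein-coding genes nearest to it. The genes around Slc14a1 share its peak in ID8 with rebastinib but spread widely elsewhere (1.36 to 1.70 from it), whereas those around Aqp9 stay close to it in all groups (0.67 to 0.83).

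Urea, the solute of Slc14a1 and also passed by Aqp9, is made from arginine by the arginases. Arginase genes were low in both lines. Arg1 was 0.642 ± 0.203 CPM in control PMJ2R and 0.584 ± 0.156 CPM with rebastinib (-0.07 on the log2 scale, adjusted p = 0.856) and had at most 4 counts in any ID8 library. Arg2, the mitochondrial arginase, rose from 0.488 to 1.87 CPM in ID8 (1.92, SE 0.326, adjusted p = 7.79e-05) and from 0.291 to 0.772 CPM in PMJ2R (1.47, SE 0.432, adjusted p = 0.00449; 0.92 and adjusted p = 0.0587 with library totals only). Its exons share 285 bp with Vti1b on the other strand, and Vti1b had 15996 counts against 207 for Arg2, so its reads are uncertain. Across all tested genes, 38.4% passed as higher and 42.0% as lower in ID8, and 40.1% and 43.6% in PMJ2R. Those shares are the background for the counts of this list and of each list below. Of 13 tested genes of urea and arginine metabolism in each line, 7 rose and 3 fell in ID8 (median 0.21) and 6 rose and 5 fell in PMJ2R (median -0.02), where the median of all tested genes was -0.07 and -0.05. With library totals only these became 4 and 7, and 2 and 8. In ID8, 4 rose at a mean of at least 5 CPM, 5 fell with DESeq2 and 7 fell with no filter on low counts. With trends on transcript length and GC content removed, 1 fell in ID8 and 3 in PMJ2R. Around polyamines, which use ornithine from arginase, Oaz1, the antizyme, rose in ID8 and PMJ2R (1.17 and 1.14), and Azin1 fell in both (-0.71 and -0.27). The exons of Azin1 share 358 bp with an antisense gene of 6963 counts, against 44275 for Azin1, so its reads are partly uncertain. Srm, spermidine synthase, rose by 0.75 in ID8 and fell by 0.92 in PMJ2R. Odc1 rose by 0.82 in ID8 and by 0.21 in PMJ2R. The PMJ2R value of Odc1 passed as lower with library totals only (-0.35, adjusted p = 3.99e-07) and was 0.00 with no filter.

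Glycerol, the other main solute of Aqp9, is turned into glycerol phosphate by glycerol kinase and returns to triglyceride through acyltransferases. Gk was 48.7, 51.4 and 39.6 CPM in control PMJ2R and 65.1, 67.3 and 68.0 CPM with rebastinib, a rise of 0.58 on the log2 scale (SE 0.0844, adjusted p = 1.17e-05) that was 0.02 with library totals only (adjusted p = 0.827). In ID8 it was 23.1 and 19.8 CPM on average (-0.21, adjusted p = 0.0624). That ID8 difference passed as lower with library totals only (-0.64, adjusted p = 1.49e-04), at a mean of at least 5 CPM (-0.31, adjusted p = 0.0129), with no filter (-0.24, adjusted p = 0.0458) and without ID8 rebastinib replicate 3 (-0.28, adjusted p = 0.0137), and was 0.15 with length and GC trends removed (adjusted p = 0.0836). Gpat3, which adds the first acyl group to glycerol phosphate, rose in PMJ2R from 0.146, 0.158 and 0.350 CPM to 14.2, 16.0 and 16.3 CPM (6.18, SE 0.202, adjusted p = 7.75e-15) and in ID8 from 3.45 to 9.86 CPM (1.52, SE 0.127, adjusted p = 5.45e-08). That change exceeded the 3.67 of Aqp9 in the same cells, with exons that share 1052 bp with an antisense gene of 233 counts. Dgat2 rose by 1.30 in PMJ2R, Agpat2 fell by 1.49 there, and the lipid droplet protein gene Plin3 fell by 1.67 in ID8 and 3.11 in PMJ2R. Of 24 tested genes of glycerol and triglyceride metabolism in each line, 8 rose and 8 fell in ID8 (median -0.02) and 14 rose and 10 fell in PMJ2R (median 0.33). The ID8 counts became 14 and 4 with length and GC trends removed and 3 and 13 with library totals only, with 5 falling without ID8 rebastinib replicate 2, and with library totals only 6 rose in PMJ2R.

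Aqp9 also passes monocarboxylates. Slc16a3, the lactate exporter MCT4, fell in ID8 from 30.8, 26.4 and 26.7 CPM to 1.38, 1.20 and 1.18 CPM (-4.47, SE 0.142, adjusted p = 6.99e-12) and by 1.03 in PMJ2R. Slc16a1, the related MCT1, rose by 1.48 in PMJ2R and by 0.49 in ID8 (0.06, adjusted p = 0.409 with library totals only), and Bsg, the partner of both, rose by 0.82 in ID8 and 0.97 in PMJ2R. Of 6 tested genes of monocarboxylate transport and lactate in each line, 4 rose and 1 fell in ID8 (median 0.40) and 4 rose and 2 fell in PMJ2R (median 0.74). In ID8 library totals only gave 1 and 2, 2 fell with no filter and without control replicate 1 or rebastinib replicate 3, and in PMJ2R 1 fell at a mean of at least 5 CPM.

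Urea and water channels act beside the genes of cell volume and osmotic response. Nfat5, the transcription factor of the response to high salt, rose by 0.91 in PMJ2R and fell in ID8 (-0.46, adjusted p = 9.86e-04), a direction that turned to 0.34 (adjusted p = 4.53e-05) once length and GC trends were removed. Slc6a12, the betaine transporter, fell in PMJ2R from 52.7 to 7.90 CPM (-2.67, adjusted p = 5.63e-15) and had 0 counts in ID8. Lrrc8c, a subunit of the volume-regulated anion channel, fell in ID8 and PMJ2R (-1.89 and -1.84), as did Lrrc8b (-1.75 and -0.67). Lrrc8d rose in both lines (0.53 and 1.66), but in ID8 it did not pass with library totals only (0.10, adjusted p = 0.306). Of 22 tested genes of this list in each line, 9 rose and 11 fell in ID8 (median -0.12) and 11 rose and 10 fell in PMJ2R (median -0.07). In ID8 14 rose and 4 fell with length and GC trends removed and 4 rose with library totals only, which left 6 rising in PMJ2R.

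In liver, Aqp9 is known as a gene that fasting raises and insulin lowers, in which FOXO factors have a part. Of the tested genes of a FOXO and fasting-linked list, 2 of 17 rose and 13 fell in ID8 (median -0.59), and 4 of 10 rose and 6 fell in PMJ2R (median -0.61). With length and GC trends removed 6 rose in ID8, and with library totals only 1 rose in PMJ2R. Ccng2, a FOXO target, fell in both lines (-3.20 and -2.58). Txnip, the thioredoxin-interacting protein gene, fell by 1.35 in ID8 and rose by 0.93 in PMJ2R, where Aqp9 was higher. The exons of Txnip share 606 bp with an antisense gene of 10515 counts, against 46263 for Txnip, so its reads are partly uncertain. Bcl6 fell in ID8 and PMJ2R (-0.72 and -2.51), and so did Cited2 (-0.49 and -3.27). Read against the 38.4% to 43.6% of all tested genes that moved in a given direction, the counts of the 5 lists describe their genes, and no test compared the lists with other genes.

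**Figure D5:**
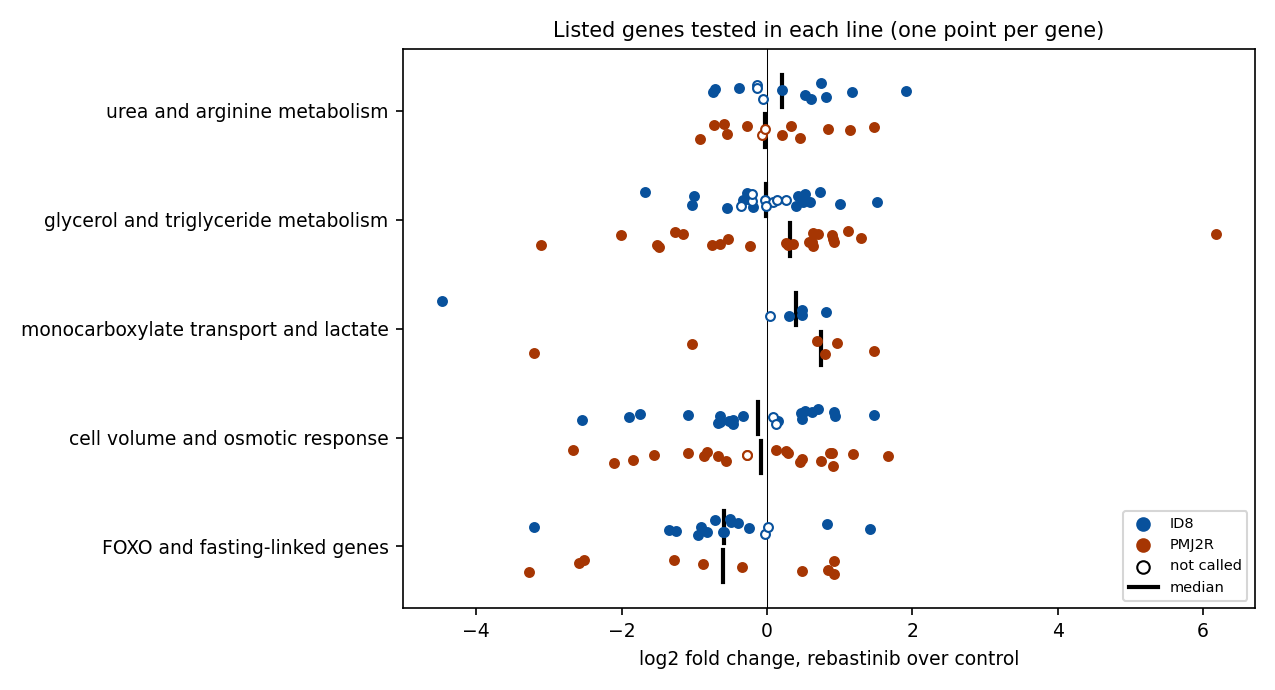
Log2 fold change of rebastinib over control for each tested gene of the 5 related lists in ID8 (blue) and PMJ2R (brown), with filled points for genes past an adjusted p of 0.05, open points for the others and a black bar at the median. Medians of 4 lists lie between -0.12 and 0.74, and the FOXO list lies at -0.59 and -0.61.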

How the data were processed

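The 12 libraries were grouped by the sample titles. The authors deposited unnormalized counts, whole numbers for 55421 Ensembl identifiers. Per the submitters' processing notes, the tools were STAR 2.6.1c, featureCounts, FastQC and DESeq2, with build GRCm38 and no stated role or order. The counting annotation is not given in the sources used here, nor is the strand setting, so reads of overlapping genes are uncertain. Symbols, positions and lengths came from GENCODE vM21 of that build, and 267 identifiers (0.0207% of counts) found no symbol and stayed in the tests. Library totals ran from 19025504 to 27070556.

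Each comparison was fitted over all genes with edgeR 4.0.16 in R 4.3.3 (TMM scaling, the tool's filter on low counts, robust quasi-likelihood test, Benjamini-Hochberg adjustment at 0.05). Within-line comparisons used that line's 6 libraries, the comparison of control lines used 6, and the difference of response was an interaction over all 12. A standard error is the log2 difference divided by the root of F. The scripts were tested on simulated data. Intervals and bounds of 3 counts per group cover counting error only.

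The members, gene lists and tests were chosen with earlier results of these data known. Named genes were both members, all aquaporins and urea transporters, up to 4 genes per list and line with the smallest p, Arg1, Arg2, Gk, Nfat5, the 2 nearest protein-coding genes on each side of a member, and the 5 genes with the most similar profile. Genes outside the rule are said to be so. Alternatives were RLE size factors, library totals only, no filter, a mean of at least 5 CPM, DESeq2 1.42.0, limma-voom (limma 3.58.1), the replicate number as a block, removal of length and GC trends (mgcv 1.9.3), and leaving out each library. Replicates within a group differed by more than sampling noise, so all were kept.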

Additional observations from a re-analysis of the deposited data

Results flagged for a closer look

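These results are listed because the response to rebastinib differed between the lines, by edgeR's test of the difference (PMJ2R minus ID8, log2 scale). For Slc14a1 the mean was lower with rebastinib in PMJ2R and higher in ID8, giving -9.40, and the difference was not tested because it chose the gene. Among aquaporins Aqp11 differed by 3.17. Among glycerol and triglyceride genes Gpat3 differed by 4.61, Dgat2 by 1.61, Gk by 0.74 and Abhd5 by 0.33, and Agpat2 by -1.68 and Plin3 by -1.49. Among arginine and polyamine genes the values were 0.38 for Azin1, -0.41 for Slc25a13, -0.66 for Odc1 and -1.74 for Srm. Among transporters of monocarboxylates and their partners they were 3.39 for Slc16a3, 0.93 for Slc16a1 and 0.44 for Emb. Genes of cell volume gave 1.31 for Nfat5, 1.02 for Lrrc8b, 1.07 for Lrrc8d, 0.65 for Trpm7 and -0.64 for Akr1b3. The FOXO list gave 2.23 for Txnip, 1.69 for Trib1, -1.85 for Bcl6 and -2.84 for Cited2. Of the genes beside Aqp9, Adam10 gave -1.0 and Polr2m 0.55. Since 52.4% of all tested genes passed the same test, a difference between lines was the usual case. With length and GC trends removed Azin1 (0.06, adjusted p = 0.552) and Trpm7 (0.19, adjusted p = 0.140) no longer passed, and Abhd5 did not pass with library totals only (0.26), no filter (0.27) or without PMJ2R rebastinib replicate 2 (0.26). Exons of Abhd5 share 950 bp with a gene of 1629 counts on the other strand, against 7383 for Abhd5. For Emb 686 bp are shared with a gene of 18322 counts, against 126354, so reads of both are partly uncertain.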

How the results depend on the processing

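Slc14a1 and Aqp9 kept their direction in every comparison under all alternatives run. With length and GC trends removed, Slc14a1 was 6.55 in ID8 and 2.51 between control lines, and Aqp9 3.89 in PMJ2R. With library totals only, Slc14a1 was 5.78 in ID8 and Aqp9 3.12 in PMJ2R, genes called higher numbered 3540 in ID8 and 3104 in PMJ2R, and the median of all tested genes moved to -0.50 in ID8 and -0.60 in PMJ2R. Without a filter Aqp9 was 3.47 in PMJ2R. Leaving out each library in turn gave Slc14a1 6.05 to 6.32 in ID8, -3.44 to -2.76 in PMJ2R and 1.88 to 2.14 between control lines, and Aqp9 3.62 to 3.72 in PMJ2R and 5.71 to 6.64 between control lines.

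Of 102 values of named context genes, 84 kept direction and call with library totals only, 94 with length and GC trends removed, 101 with DESeq2, 99 with no filter, and 102 with RLE size factors and with limma-voom. Of 90 at a mean of at least 5 CPM 88 did, and of 762 with a library left out 752 did. Values that turned sign with library totals only were Aqp11 -0.35, Agpat2 -0.29, Emb -0.13 and Polr2m -0.38 in ID8 and Odc1 -0.35 in PMJ2R, and with length and GC trends removed Gk 0.15 and Nfat5 0.34 in ID8 and Slc7a1 0.02 in PMJ2R. Polr2m in ID8 was -0.04 at a mean of at least 5 CPM. With a library left out, Aqp11 in ID8 ran from -0.21 without rebastinib replicate 2, with -0.12 without control replicate 3, to 0.26, and Arg1 in PMJ2R ran from 0.02 to 0.18 in 3 of the omissions, 0.06 among them. The cause was not tested.

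The replicate block changed no call (102 of 102) and gave 6.22 and -3.13 for Slc14a1 and 3.67 for Aqp9 in PMJ2R. Same-numbered libraries had correlations of -0.136 to 0.0771, so the numbers were not taken to pair samples. Depth limits Aqp9 in ID8, at 12 and 4 counts, and Slc14a1 in PMJ2R with rebastinib, at 23.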
